A study of Homo sapiens with 16 samples.

Results

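Interferon-stimulated genes, with the cytoplasmic RNA sensors and the transcription factors that act on them, were followed in 2 human breast cancer lines given MitoQ, a ubiquinone analogue joined to a cation that accumulates in mitochondria. The set held 41 genes chosen by symbol: 3 RNA sensors, 4 factors and the remaining 34 effectors and other induced genes. A row was found for 40 of them among 35106 gene rows, and OAS1 was not analysed here. The 16 libraries of total RNA formed 4 groups. MDA-MB-231 cells, at passage 25, gave 5 libraries after 48 h in 500 nM MitoQ and 5 control libraries. SKBR3 cells, at passage 10, gave 3 libraries after the same dose and time and 3 control libraries. Both are adenocarcinoma lines from pleural effusions, established cultures with no stroma or blood of their own, and the labels name no transgene. What the controls received, and whether replicates were separate cultures, is not stated in the labels, so p-values measure only the spread between these libraries. Line and passage cannot be told apart.

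Cells detect viral RNA in the cytoplasm through helicases of the RIG-I family. These helicases signal through a protein on the mitochondrial outer membrane to start transcription of type I and type III interferon genes. Secreted interferon acts through its receptors on a complex of STAT proteins and IRF9, which binds a short element, the interferon-stimulated response element, in front of many antiviral genes. The products of these genes bind or cut viral RNA, tag proteins with ISG15 or block budding, and in cancer cells many are also expressed at a steady level without infection.

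Library totals ran from 14723152 to 29294865 estimated counts, and a count of 0 in a library allows up to 3 counts of its total, 0.102 to 0.204 CPM. Levels are given as CPM, the estimated count scaled to library size with TMM normalisation over all 16 libraries. Marker genes fitted the line names except for CDH1. Of 8 genes listed as SKBR3 markers, 7 were higher in SKBR3 than in MDA-MB-231 controls, and all 7 MDA-MB-231 markers were lower. CDH1 was low in both lines, at 2.76 CPM in SKBR3 and 2.57 CPM in MDA-MB-231 controls, and did not pass (0.13 ± 0.17). The 8 listed SKBR3 genes summed to 12364 to 13546 CPM in MitoQ SKBR3 cells and 10948 to 12338 CPM in SKBR3 controls. In MDA-MB-231 cells they summed to 1146 to 1420 CPM with MitoQ and 1029 to 1122 CPM in controls. Counts from mitochondrial DNA genes were 0.891 to 1.24% of the total in MitoQ MDA-MB-231 cells, against 3.10 to 3.68% in their controls. They were 5.15 to 5.26% in MitoQ SKBR3 cells, against 5.67 to 7.08% in their controls. With these genes left out of the counts, the set had the same number of rises and falls in each line. Less RNA per cell and fewer cells expressing a gene cannot be told apart in such bulk libraries.

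The sequences just upstream of 7 of the genes are shown because the response element, where present, lies there. They were drawn from the sensors, factors and named effectors of MDA-MB-231 cells with a promoter in the RefSeq table. Genes holding the motif described next were taken first, then those with the largest changes, and DDX58 was added. How many of these 7 hold the motif therefore follows from the choice. Each is the 250 bases before the RefSeq start on GRCh38.p14, written 5′ to 3′ on the gene's strand. Capitals mark matches to GAAA, any 2 bases and GAAA again, or on the other strand TTTC, any 2 bases and TTTC, the core of the interferon-stimulated response element, with overlapping matches joined. The sensors DDX58 (RIG-I, listed by RefSeq as RIGI; chr9:32526197-32526446, minus strand) and IFIH1 (MDA5; chr2:162318685-162318934, minus strand) come first.
DDX58: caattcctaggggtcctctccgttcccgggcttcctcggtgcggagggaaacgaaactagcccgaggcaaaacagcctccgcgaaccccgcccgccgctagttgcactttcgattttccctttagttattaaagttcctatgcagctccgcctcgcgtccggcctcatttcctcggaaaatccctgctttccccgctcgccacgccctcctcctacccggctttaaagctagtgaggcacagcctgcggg
IFIH1: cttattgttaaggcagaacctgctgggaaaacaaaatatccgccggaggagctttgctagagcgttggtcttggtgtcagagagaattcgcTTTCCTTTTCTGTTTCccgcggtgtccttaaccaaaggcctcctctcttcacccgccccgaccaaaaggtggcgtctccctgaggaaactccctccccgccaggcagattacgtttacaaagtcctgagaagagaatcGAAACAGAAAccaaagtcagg
The RNA-binding IFIT5 (chr10:89414318-89414567, plus strand) fell beside DDX58 in MDA-MB-231 cells. The antiviral effectors RSAD2 (chr2:6865635-6865884, plus strand), ISG20 (chr15:88638766-88639015, plus strand), SAMD9 (chr7:93117980-93118229, minus strand) and DDX60 (chr4:168318753-168319002, minus strand) rose there by at least 2-fold.
IFIT5: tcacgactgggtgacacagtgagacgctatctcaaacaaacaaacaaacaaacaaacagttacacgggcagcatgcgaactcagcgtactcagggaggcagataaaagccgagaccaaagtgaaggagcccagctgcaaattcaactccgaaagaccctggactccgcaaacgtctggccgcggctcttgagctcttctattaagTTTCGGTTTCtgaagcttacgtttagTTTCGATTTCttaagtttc
RSAD2: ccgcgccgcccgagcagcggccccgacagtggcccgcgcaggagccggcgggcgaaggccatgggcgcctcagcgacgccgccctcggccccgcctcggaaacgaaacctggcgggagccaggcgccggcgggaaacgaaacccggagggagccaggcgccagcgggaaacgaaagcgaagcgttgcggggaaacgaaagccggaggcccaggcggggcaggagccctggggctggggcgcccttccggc
ISG20: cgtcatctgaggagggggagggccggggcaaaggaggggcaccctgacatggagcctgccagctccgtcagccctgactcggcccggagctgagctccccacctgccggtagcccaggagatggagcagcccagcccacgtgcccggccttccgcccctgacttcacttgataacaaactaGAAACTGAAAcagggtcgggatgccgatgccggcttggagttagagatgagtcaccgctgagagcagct
SAMD9: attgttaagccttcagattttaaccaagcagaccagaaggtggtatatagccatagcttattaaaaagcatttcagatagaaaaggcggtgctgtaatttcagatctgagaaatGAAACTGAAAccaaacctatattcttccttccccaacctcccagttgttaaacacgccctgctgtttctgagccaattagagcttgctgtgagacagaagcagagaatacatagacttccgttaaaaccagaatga
DDX60: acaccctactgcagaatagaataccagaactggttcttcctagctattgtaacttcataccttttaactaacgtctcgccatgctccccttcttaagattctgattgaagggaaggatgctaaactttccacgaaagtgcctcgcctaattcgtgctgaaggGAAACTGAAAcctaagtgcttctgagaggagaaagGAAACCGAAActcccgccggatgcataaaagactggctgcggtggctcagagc
IFIH1 held 3 matches, of which 2 overlapped, IFIT5 and DDX60 held 2 each, and ISG20 and SAMD9 held 1 each. DDX58 and RSAD2 held none in this window. GENCODE places the starts of DDX58 (32526324) and RSAD2 (6865806) inside their windows. The same holds for IFIH1 (162318703), SAMD9 (93118023) and DDX60 (168318807), and ISG20 starts before its window (88636153). Both the matches and their absence therefore depend on the start used. Over the set, 33 of the 40 genes had a promoter in the RefSeq table and 18 of them (54.5%) held the motif, against 1061 of all 35116 promoters in the table (3.02%). A form with a spacer of 1 base between the same letters, on either strand, was searched after the sequences had been read. It matched 4 times in RSAD2 and once in DDX58, lay in 9 of the 33 promoters (27.3%), and lay in 945 of all promoters (2.69%). The motif with the 2-base spacer was present in 13 of 24 genes that rose in MDA-MB-231 cells (54.2%), in IFIT5 of the 2 that fell, and in 4 of 7 that did not pass the test there (57.1%). In SKBR3 cells it was present in 4 of 9 genes that rose (44.4%) and in 11 of 17 tested genes that did not (64.7%). A match is a run of letters and does not show that a factor binds.

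In MDA-MB-231 cells MitoQ was accompanied by higher levels across most of the set. Of 39 genes tested, 29 rose and 2 fell, while 8 did not pass the test. Genes passed at an adjusted p under 0.05 in edgeR's quasi-likelihood F test, the Benjamini-Hochberg method being applied over all genes. Among all 15304 genes tested, 57.5% passed in either direction, 29.9% rose and 27.6% fell. The median log2 fold change of the 39 genes was 0.56, against 0.012 over all genes tested. The summed level of the 40 genes was 959 to 1055 CPM in MitoQ libraries and 722 to 748 CPM in controls, so the 5 MitoQ libraries all lay above the 5 controls. Abundant genes weigh most in this sum. TRIM25 averaged 254 CPM with MitoQ and 163 CPM in controls, and IFI16 averaged 139 CPM with MitoQ and 88.2 CPM in controls. By role, 2 of 3 sensors, 3 of 3 tested factors, 2 of 4 IFIT genes and 3 of 3 OAS genes rose. So did 3 of 5 genes of the ISG15 pathway, 9 of 10 other antiviral effectors, 2 of 3 PARP and cofactor genes, and 5 of 7 IFI and similar genes. IRF7 was too low to be tested.

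**Figure D1:**
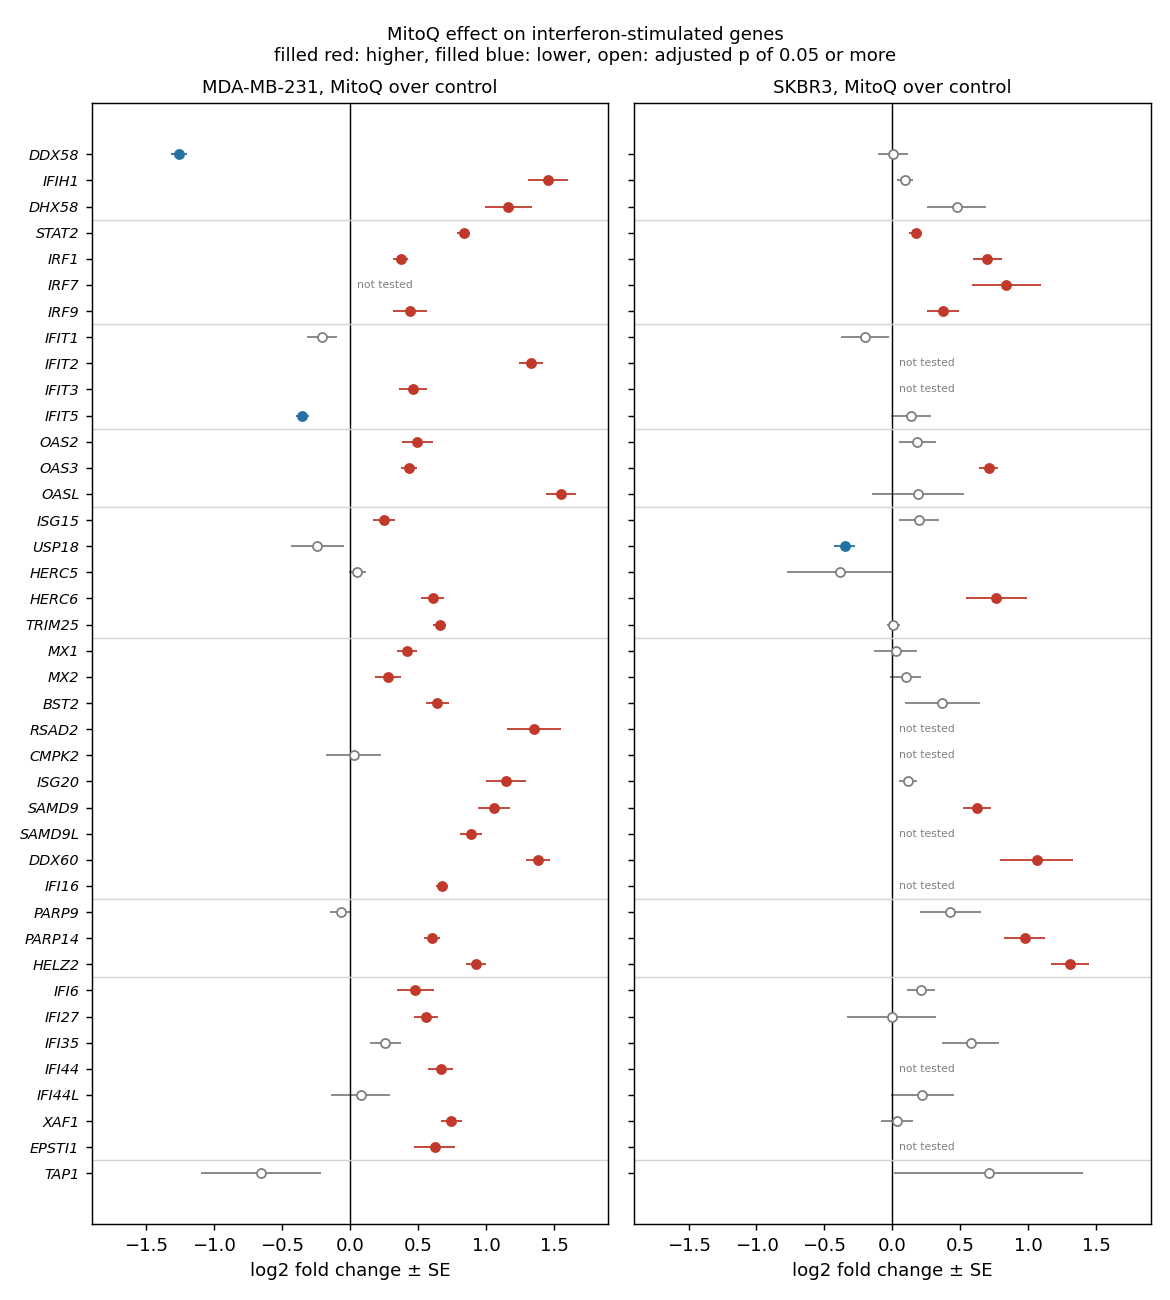
Log2 fold change (MitoQ over control) of each gene in MDA-MB-231 (left, n = 5 each) and SKBR3 cells (right, n = 3 each), with bars of 1 SE and grey lines between roles. In MDA-MB-231 cells 29 genes lie significantly to the right and DDX58 and IFIT5 to the left, while in SKBR3 cells 10 lie to the right and USP18 to the left.

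The 3 RNA sensors did not move together in MDA-MB-231 cells. DDX58 (chr9:32455705-32526324, GRCh38) encodes RIG-I, which recognises RNA ends carrying a triphosphate. Its level was 29.3, 23.0, 25.8, 25.8 and 24.3 CPM in the 5 MitoQ libraries and 59.5, 63.5, 64.0, 62.9 and 62.3 CPM in the 5 controls. Every MitoQ library lay below every control, and the gene fell 2.40-fold (log2 fold change -1.26 ± 0.059 SE, edgeR adjusted p = 1.66e-12). IFIH1 (chr2:162267079-162318703) encodes MDA5, a related helicase that binds long double-stranded RNA. It stood at 4.48, 4.16, 5.68, 4.63 and 4.04 CPM in MitoQ libraries and 1.22, 1.79, 1.80, 1.76 and 1.87 CPM in controls. The groups did not overlap, control 1 was the lowest of all, and IFIH1 rose 2.74-fold (1.46 ± 0.14, edgeR adjusted p = 6.76e-08). DHX58 (chr17:42101404-42112733) encodes LGP2, a family member without signalling domains that modulates the other two. DHX58 reached 2.96, 1.87, 2.40, 2.77 and 2.21 CPM with MitoQ, against 0.928, 1.36, 1.10, 1.08 and 1.06 CPM in controls. It was again higher in every MitoQ library and rose 2.24-fold (1.16 ± 0.17, edgeR adjusted p = 1.20e-05). Per kilobase of the longest transcript, DDX58 averaged 5.89 CPM in MitoQ cells and 14.3 CPM in controls, while IFIH1 averaged 1.28 CPM in MitoQ cells and 0.470 CPM in controls. RIG-I transcript thus stayed above MDA5 transcript in either group, although the ratio between them narrowed.

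The tested factors all rose in MDA-MB-231 cells. STAT2, the STAT that joins IRF9 in the interferon-activated complex, was at 75.9, 69.9, 75.2, 74.4 and 75.9 CPM in MitoQ libraries and 45.6, 39.7, 42.0, 42.8 and 41.4 CPM in controls. The groups were far apart (1.78-fold; log2 fold change 0.83 ± 0.047 SE). IRF9, the DNA-binding partner, was at 20.5, 11.2, 19.5, 17.7 and 17.4 CPM with MitoQ and 13.8, 12.3, 13.2, 12.3 and 13.0 CPM in controls. MitoQ library 2 lay below every control while the other 4 lay above them, and the log2 fold change was 0.44 ± 0.12 (edgeR adjusted p = 0.00657). IRF9 shares 50.3% of its 31-base stretches with other annotated genes, chiefly AL136295.5, so its count is uncertain. IRF1, an activator of many of the same promoters, was at 32.1, 34.2, 31.5, 35.7 and 35.6 CPM with MitoQ and 28.0, 24.7, 26.9, 26.7 and 26.6 CPM in controls, with no overlap and a log2 fold change of 0.37 ± 0.055. IRF1 shares 28.5% of its stretches, mostly with C5orf56. IRF7, the factor that amplifies interferon transcription, lay at 0.555, 0, 1.47, 0.317 and 1.42 CPM with MitoQ and 0.253, 0.0778, 0.0707, 0.0430 and 0.774 CPM in controls. These levels straddle the limit that a count of 0 allows, and the groups overlapped.

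**Figure D2:**
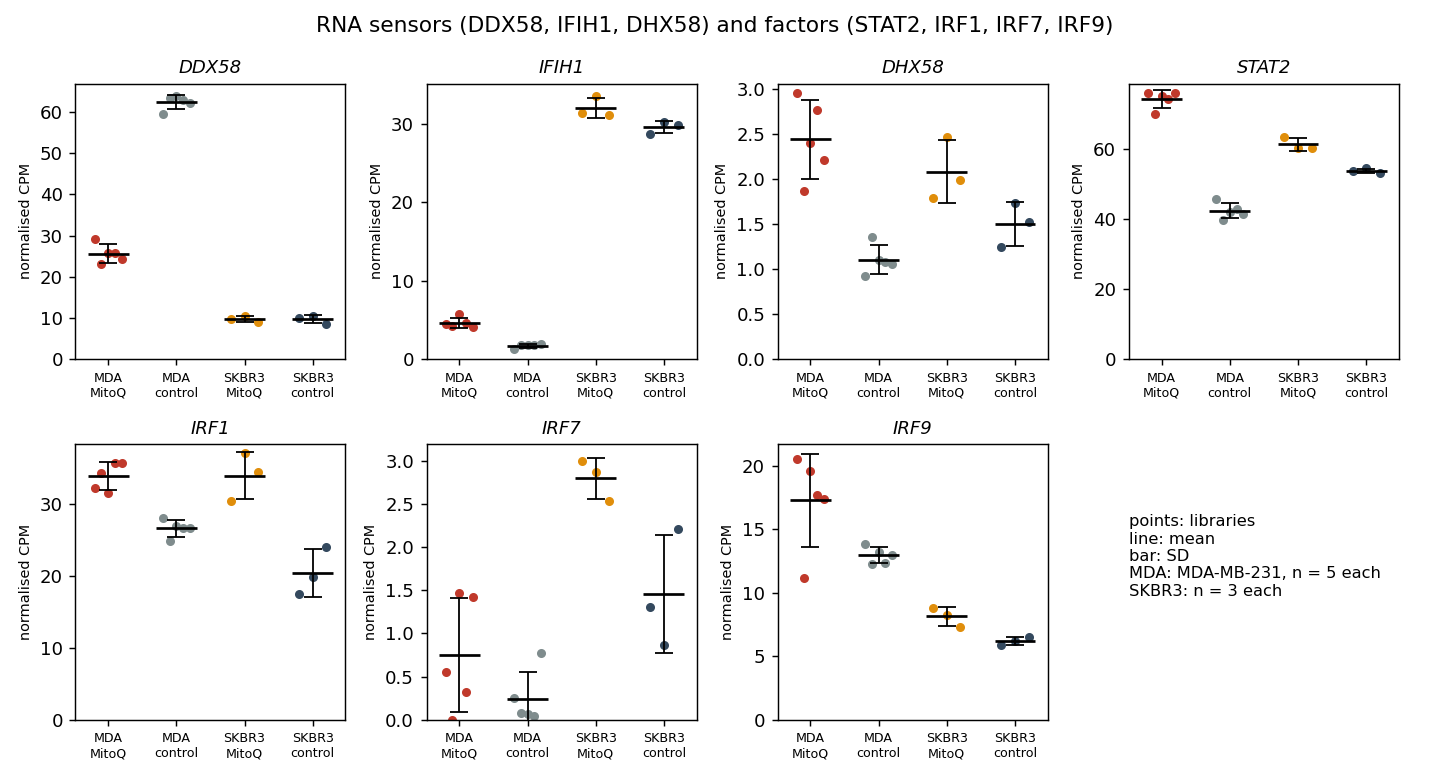
Normalised CPM of the 3 sensors and 4 factors in every library (points), with the group mean and SD, MitoQ left of control within each line. DDX58 sits at 23.0 to 29.3 CPM in MitoQ and 59.5 to 64.0 CPM in control MDA-MB-231 libraries, and the 2 SKBR3 groups share the range 8.62 to 10.5 CPM.

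The largest rise among effectors in MDA-MB-231 cells was that of OASL, an OAS-like protein without synthetase activity that binds RIG-I. It was at 10.7, 7.76, 10.8, 10.5 and 9.76 CPM in MitoQ libraries, against 3.50, 3.11, 3.71, 2.88 and 3.87 CPM in controls (2.93-fold; log2 fold change 1.55 ± 0.11 SE). DDX60, a helicase-like antiviral protein, was at 18.1, 13.2, 17.2, 17.1 and 14.4 CPM with MitoQ, against 6.29, 5.76, 6.61, 6.24 and 6.23 CPM (1.38 ± 0.091). IFIT2, which binds RNA and restricts translation of viral messages, was at 18.0, 13.7, 17.3, 19.5 and 17.6 CPM with MitoQ, against 6.88, 7.55, 6.97, 6.15 and 7.21 CPM (1.33 ± 0.090). In these 3 genes every MitoQ library was above every control by a wide margin, and MitoQ library 2 was the lowest of its group. RSAD2 encodes viperin, a radical SAM enzyme that makes a chain-terminating nucleotide, and was scarce: 2.89, 2.42, 2.06, 2.30 and 2.17 CPM with MitoQ, against 1.10, 0.856, 0.849, 0.559 and 1.34 CPM (1.35 ± 0.20). ISG20, an RNA exonuclease, was at 8.40, 5.60, 9.16, 10.3 and 6.46 CPM with MitoQ, against 4.18, 3.62, 3.57, 3.83 and 3.06 CPM (1.15 ± 0.15). SAMD9, a restriction factor for poxviruses, was at 37.7, 24.8, 39.1, 36.6 and 29.1 CPM with MitoQ, against 14.6, 16.6, 15.7, 19.2 and 15.7 CPM (1.06 ± 0.12). ISG20 and SAMD9 spread widely among MitoQ libraries, with libraries 2 and 5 the lowest in both.

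Smaller rises without overlap in MDA-MB-231 cells were those of HELZ2, SAMD9L, XAF1 and IFI16. HELZ2, a helicase-like coactivator of nuclear receptors, was at 47.3, 37.2, 47.5, 46.3 and 46.8 CPM with MitoQ and 26.6, 25.8, 23.4, 23.5 and 20.9 CPM in controls (0.93 ± 0.075). SAMD9L, the neighbour and relative of SAMD9, was at 11.5, 12.6, 11.1, 10.7 and 11.05 CPM with MitoQ and 5.74, 6.11, 6.23, 6.88 and 6.27 CPM in controls (0.89 ± 0.081). Unlike most genes of the set, SAMD9L was highest in MitoQ library 2. XAF1, a pro-apoptotic partner of XIAP, was at 23.0, 19.9, 21.8, 20.2 and 18.9 CPM with MitoQ and 12.5, 12.8, 10.6, 13.9 and 13.2 CPM in controls (0.74 ± 0.077). XAF1 shares 36.6% of its stretches with other genes, nearly all with PRAL. IFI16, a nuclear DNA sensor, was abundant at 135, 149, 142, 135 and 133 CPM with MitoQ and 87.5, 88.8, 89.0, 90.4 and 85.5 CPM in controls (0.67 ± 0.045), and was also highest in library 2. IFIT5, an RNA-binding IFIT that prefers triphosphate ends, was the other gene that fell. IFIT5 was at 31.3, 30.0, 32.7, 33.0 and 31.6 CPM with MitoQ and 42.8, 40.1, 40.8, 41.9 and 40.3 CPM in controls, with no overlap (-0.35 ± 0.048, edgeR adjusted p = 3.76e-06).

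Other members of the set rose less in MDA-MB-231 cells, or their groups overlapped. The ubiquitin and ISG15 ligase TRIM25, which also acts on RIG-I, averaged 254 ± 13.5 CPM with MitoQ and 163 ± 4.36 CPM in controls (SD, n = 5 each). ISG15 itself, the ubiquitin-like modifier, averaged 20.0 ± 2.60 CPM with MitoQ and 17.1 ± 1.14 CPM in controls (SD, n = 5 each). That is a log2 fold change of only 0.25 ± 0.082, and MitoQ library 2 lay among the controls. The oligoadenylate synthetases OAS2 and OAS3, which activate the RNA-cutting RNase L, had log2 fold changes of 0.49 ± 0.11 and 0.43 ± 0.058. The myxovirus GTPases MX1 and MX2 had 0.42 ± 0.073 and 0.28 ± 0.096, and the tethering protein BST2 had 0.64 ± 0.085. Groups overlapped in 7 of the 31 genes that passed: IRF9, IFIT3, OAS2, ISG15, MX2, IFI6 and EPSTI1. Overlap among all genes that passed was not counted in any comparison. Whether the set differs from other genes in this is therefore not known. Those that did not pass were IFIT1, USP18, HERC5, CMPK2, PARP9, IFI35, IFI44L and TAP1, with log2 fold changes between -0.66 and 0.26. For IFIT1, an mRNA cap sensor, the 95% interval of the log2 fold change was -0.42 to 0.011. For the ISG15 ligase HERC5 it was -0.069 to 0.17.

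MitoQ library 2 stood apart within its group. It was the lowest of the 5 MitoQ libraries for 21 of the 29 genes of the set that rose (72.4%), and for 34.6% of all 4574 genes that rose. Its mitochondrial share of counts, 0.891%, was also the lowest. Without it 31 genes of the set rose and 2 fell, IRF7 and IFI35 being added, and the median log2 fold change was 0.62. The part of this library in the spread was not tested beyond leaving it out.

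**Figure D3:**
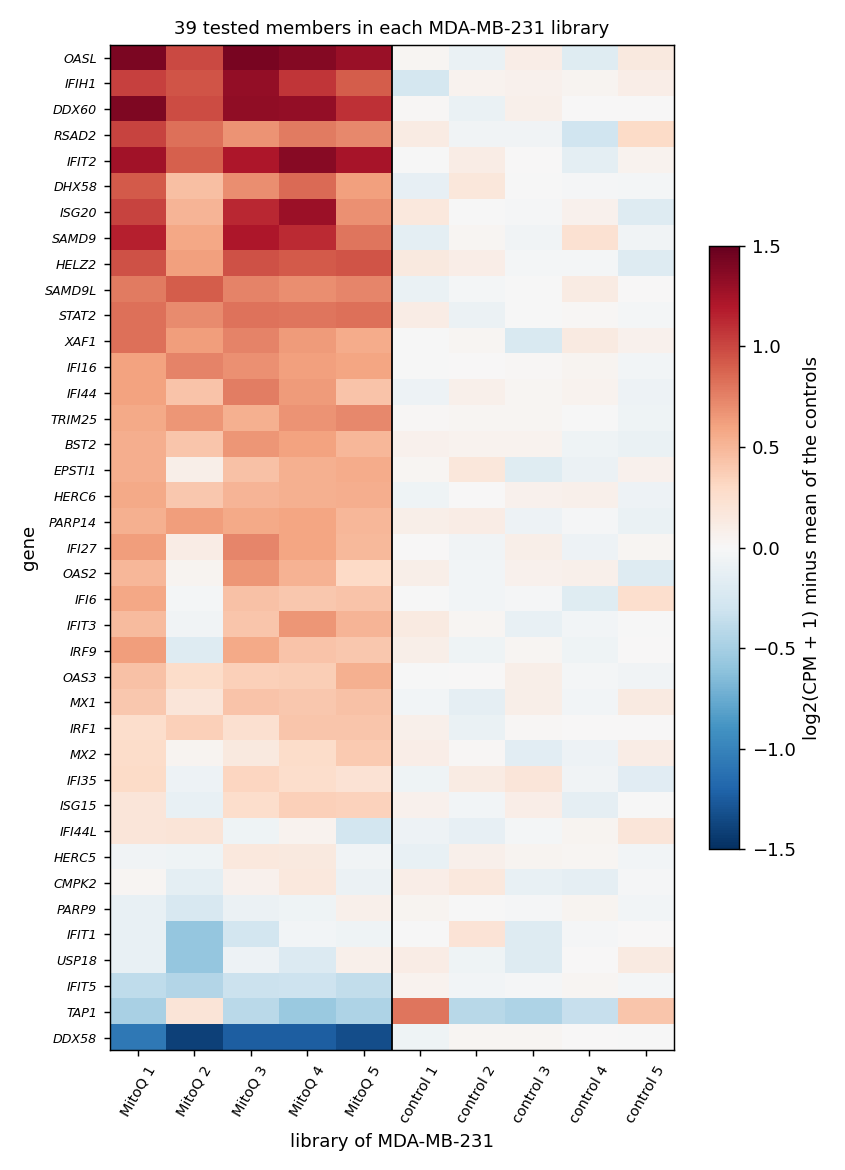
Each tested gene (row, ordered by log2 fold change) in each MDA-MB-231 library (column, MitoQ left), coloured by log2(CPM + 1) minus the mean of the 5 controls. Most rows are red in the MitoQ columns, many of them palest in MitoQ 2, and DDX58 at the bottom is blue in all 5.

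In SKBR3 cells most genes of the set did not pass the test. Of 32 genes tested, 10 rose, 1 fell and 21 did not pass the test, among 15026 genes tested of which 28.0% passed, 13.8% rose and 14.1% fell. The median log2 fold change of the 32 genes was 0.20, against -0.00064 over all genes tested. The summed level of the 40 genes was 419 to 432 CPM in MitoQ libraries and 355 to 368 CPM in controls, again without overlap. The 8 genes too low to be tested were IFIT2, IFIT3, RSAD2, CMPK2, SAMD9L, IFI16, IFI44 and EPSTI1. The 4 factors all rose, none of the 3 sensors passed, and none of the 5 tested IFI and similar genes passed. In both lines 9 genes rose: STAT2, IRF1, IRF9, OAS3, HERC6, SAMD9, DDX60, PARP14 and HELZ2. They are 31.03% of the 29 that rose in MDA-MB-231 cells and 90% of the 10 that rose in SKBR3 cells. Over all genes, 869 rose in both lines, 18.999% of the 4574 that rose in MDA-MB-231 cells and 41.9% of the 2076 that rose in SKBR3 cells.

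The sensors of SKBR3 cells had close levels in MitoQ and control libraries. DDX58 was at 9.74, 10.5 and 8.89 CPM with MitoQ and 9.91, 10.5 and 8.62 CPM in controls, with a log2 fold change of 0.0041 ± 0.11 and a 95% interval of -0.21 to 0.22. IFIH1 was at 31.3, 33.5 and 31.1 CPM with MitoQ and 28.7, 30.2 and 29.8 CPM in controls (0.096 ± 0.059, interval -0.020 to 0.21). DHX58 was at 1.78, 2.47 and 1.99 CPM with MitoQ and 1.25, 1.73 and 1.52 CPM in controls (0.47 ± 0.22, interval 0.043 to 0.90). The DDX58 groups overlapped, while IFIH1 and DHX58 were higher in all 3 MitoQ libraries without passing the test. Among factors, IRF1 was at 30.4, 37.0 and 34.3 CPM with MitoQ and 17.4, 19.8 and 23.9 CPM in controls (0.70 ± 0.10, edgeR adjusted p = 6.93e-04). IRF7 was at 2.99, 2.87 and 2.53 CPM with MitoQ and 1.30, 0.866 and 2.21 CPM in controls (0.84 ± 0.25, edgeR adjusted p = 0.0242). In both genes control 3 was the control nearest to the MitoQ libraries. STAT2 was at 63.5, 60.4 and 60.2 CPM with MitoQ and 53.6, 54.5 and 53.2 CPM in controls (0.17 ± 0.049), and IRF9 averaged 8.13 ± 0.754 CPM with MitoQ and 6.18 ± 0.315 CPM in controls (SD, n = 3 each; 0.38 ± 0.12). Calls of STAT2, IRF7 and IRF9 were lost when some single libraries were left out, IRF7 and IRF9 without control 1, control 2, MitoQ 1 or MitoQ 2 and STAT2 without MitoQ 1.

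Among effectors of SKBR3 cells HELZ2 rose most, at 15.4, 17.8 and 18.4 CPM with MitoQ and 5.20, 6.46 and 8.47 CPM in controls (2.48-fold; log2 fold change 1.31 ± 0.14 SE, edgeR adjusted p = 3.82e-05). DDX60, at 1.59, 1.89 and 1.78 CPM with MitoQ and 0.596, 1.199 and 0.760 CPM in controls, rose 2.09-fold (1.06 ± 0.27), a call lost without MitoQ 2. PARP14, a mono-ADP-ribosyltransferase, was at 6.32, 6.97 and 6.47 CPM with MitoQ and 2.82, 4.20 and 3.08 CPM in controls (0.97 ± 0.15). These groups were apart in each case, with control 3 or control 2 the highest control. OAS3 was at 23.5, 25.4 and 25.3 CPM with MitoQ and 14.3, 14.6 and 15.7 CPM in controls, with little spread in either group (0.71 ± 0.069, edgeR adjusted p = 8.97e-06). SAMD9 was at 11.2, 10.2 and 11.5 CPM with MitoQ and 7.10, 6.46 and 7.35 CPM in controls (0.62 ± 0.10). HERC6, a relative of the ISG15 ligase HERC5, was at 1.88, 2.21 and 2.16 CPM with MitoQ and 0.975, 1.13 and 1.45 CPM in controls (0.76 ± 0.22). HERC6 lay below 3 CPM, and its call was lost without control 1, control 2 or MitoQ 2. USP18, the protease that removes ISG15 and damps the interferon receptor, was the gene that fell. It was at 14.8, 15.2 and 17.1 CPM with MitoQ and 20.6, 19.9 and 18.7 CPM in controls, with no overlap (-0.35 ± 0.079, edgeR adjusted p = 0.00414). USP18 shares 30.8% of its stretches with other genes, chiefly its near copy USP41, so the count is uncertain. Its call was lost in a single fit over all 16 libraries (edgeR adjusted p = 0.0832) and against a minimum change of 1.2-fold.

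The 6 control and MitoQ libraries of SKBR3 did not separate evenly. On the first principal component of all genes control 3 lay at -6.88, the other 2 controls at -17.8 and -17.0, and the MitoQ libraries between 11.3 and 16.04. Without control 3, 11 genes of the set rose and 1 fell. Without MitoQ 2, 6 rose, and without control 1, control 2 or MitoQ 1, 7 rose, while USP18 fell each time. The 21 genes that did not pass had log2 fold changes between -0.39 and 0.71, IFI35 being nearest to the threshold (edgeR adjusted p = 0.0519).

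The difference of the MitoQ effect between lines was tested directly as an interaction over all 16 libraries (effect in MDA-MB-231 minus effect in SKBR3). Of 40 genes, 9 had a higher and 6 a lower effect in MDA-MB-231 cells, and 25 did not pass, among 17094 genes of which 34.1% passed, 14.9% higher and 19.1% lower. With plain library totals in place of TMM, 58.4% of the called genes were higher rather than 43.9%, and 11 genes of the set were higher and 2 lower. DDX58 differed by -1.31 ± 0.12 on the log2 scale (edgeR adjusted p = 5.85e-09) and IFIH1 by 1.32 ± 0.15 (edgeR adjusted p = 2.32e-07), in opposite directions. STAT2 differed by 0.62 ± 0.071 and IRF1 by -0.37 ± 0.12, IRF1 having the larger rise in SKBR3 cells. DHX58 (0.65 ± 0.28, edgeR adjusted p = 0.0782) and IRF9 (0.023 ± 0.20, edgeR adjusted p = 0.969) did not pass, and IRF7 had an interval of -1.42 to 2.85.

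Effectors with the larger effect in MDA-MB-231 cells were RSAD2 (1.52 ± 0.43), OASL (1.34 ± 0.33), ISG20 (0.99 ± 0.19), XAF1 (0.67 ± 0.14) and TRIM25 (0.61 ± 0.069). TRIM25 was at 101, 100.4 and 110.2 CPM in MitoQ SKBR3 cells and 104, 103 and 98.1 CPM in their controls, with a 95% interval of the log2 fold change of -0.083 to 0.098. ISG20 averaged 29.7 ± 1.80 CPM in MitoQ SKBR3 cells and 27.0 ± 1.33 CPM in their controls (SD, n = 3 each). RSAD2 lay under 0.5 CPM in all SKBR3 libraries, where it was too low for the test within the line, so its difference is loosely sized (95% interval 0.67 to 2.37). OASL lay under 1 CPM in all SKBR3 libraries, and its call was lost without SKBR3 control 3. The calls of IFI16 and EPSTI1 rest on sums of 3 and 5 counts in the SKBR3 controls and 0 in MitoQ SKBR3 cells, so they give no usable size. Effectors with the lower effect in MDA-MB-231 cells were IFIT5 (-0.53 ± 0.12), PARP9 (-0.53 ± 0.20), PARP14 (-0.42 ± 0.14) and OAS3 (-0.32 ± 0.096). IFIT5 was at 4.63, 4.06 and 4.04 CPM in MitoQ SKBR3 cells and 3.41, 4.20 and 3.84 CPM in their controls, and its groups overlapped there. The calls of PARP9, PARP14, OAS3 and IRF1 were all lost with plain library totals. PARP9 was nearest to the threshold (edgeR adjusted p = 0.0465) and lost its call in 20 of 26 alternatives, DESeq2 and most single libraries left out among them. Without SKBR3 control 1, or without SKBR3 MitoQ 2, the set had 3 lower effects in place of 6, PARP14 and IRF1 also losing their calls, and PARP14 lost its call without SKBR3 control 3.

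In control cells the set was lower in SKBR3 than in MDA-MB-231 cells for most genes. Of 40 genes tested between control libraries, 6 were higher in SKBR3 cells, 28 were lower and 6 did not pass, among 16398 genes of which 86.5% passed, 42.0% higher and 44.4% lower. The median log2 fold change was -1.49, against -0.019 over all genes tested, and 30 of the 40 genes (75%) passed with a difference of at least 2-fold, against 48.0% of all genes tested. TAP1 (2.01-fold lower) reached that size without passing. In SKBR3 controls 14 of the genes averaged under 1 CPM, against 2 in MDA-MB-231 controls (IRF7 and RSAD2). The 2 helicases ran in opposite directions. DDX58 averaged 9.66 ± 0.944 CPM in SKBR3 controls (SD, n = 3) and 62.4 ± 1.74 CPM in MDA-MB-231 controls (SD, n = 5), 6.47-fold lower. IFIH1 averaged 29.6 ± 0.760 CPM in SKBR3 controls (SD, n = 3) and 1.69 ± 0.264 CPM in MDA-MB-231 controls (SD, n = 5), 17.6-fold higher. Per kilobase, IFIH1 at 8.23 CPM stood above DDX58 at 2.22 CPM in SKBR3 controls, and DDX58 at 14.3 CPM stood above IFIH1 at 0.470 CPM in MDA-MB-231 controls. DHX58 did not pass (0.45 ± 0.23). STAT2 and IRF7 were higher in SKBR3 cells (0.36 ± 0.051 and 2.66 ± 0.66), and IRF1 and IRF9 lower (-0.35 ± 0.081 and -1.04 ± 0.091).

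The effectors higher in SKBR3 controls were USP18, ISG20 and IFI6. USP18 averaged 19.7 ± 0.946 CPM in SKBR3 controls (SD, n = 3) and 1.77 ± 0.255 CPM in MDA-MB-231 controls (SD, n = 5), with a log2 fold change of 3.50 ± 0.11. ISG20 averaged 27.0 ± 1.33 CPM in SKBR3 controls and 3.65 ± 0.409 CPM in MDA-MB-231 controls (2.90 ± 0.089). IFI6, a mitochondrial and endoplasmic reticulum protein, averaged 8.40 ± 0.659 CPM in SKBR3 controls and 3.81 ± 0.534 CPM in MDA-MB-231 controls (1.15 ± 0.13). These 3 genes exceeded their MDA-MB-231 levels in every SKBR3 control. The effectors with the largest fitted differences below MDA-MB-231 controls were IFI16, CMPK2, IFI44, IFIT3, HERC5 and IFI27. IFI16 had 3 counts over the 3 SKBR3 controls and 11073 over the 5 MDA-MB-231 controls, a ratio of MDA-MB-231 over SKBR3, scaled for depth, of 1752 (95% counting interval 599 to 8495). CMPK2, a mitochondrial nucleotide kinase next to RSAD2, had no count in the SKBR3 controls and 131 in the MDA-MB-231 controls, at least 20.7-fold lower in SKBR3 with 3 counts over the group as the floor. Only that bound is known for CMPK2, so it has no place in the order, and SAMD9L (36.6-fold lower) lay beyond the bound. IFI44 averaged 0.105 CPM in SKBR3 controls, near the limit of detection, and 6.74 CPM in MDA-MB-231 controls. Its 6 counts in SKBR3 controls give a ratio of 67.0 (95% counting interval 30.6 to 183), so its place in the order is uncertain. The IFIT2 partner IFIT3 averaged 0.221 CPM in SKBR3 controls, from 15 counts over the group, and 15.0 CPM in MDA-MB-231 controls. HERC5 averaged 0.666 ± 0.297 CPM in SKBR3 controls and 31.3 ± 1.65 CPM in MDA-MB-231 controls. IFI27, a mitochondrial protein that was first of the set per kilobase in MDA-MB-231 cells, averaged 0.614 ± 0.110 CPM in SKBR3 controls and 27.0 ± 1.22 CPM in MDA-MB-231 controls. Ranked per kilobase, IFI27, IFI16, TRIM25, ISG15 and DDX58 led in MDA-MB-231 controls, and TRIM25, STAT2, ISG20, IFI6 and USP18 led in SKBR3 controls. Each treatment comparison shares its controls with this one, so the effects and these levels are not independent.

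**Figure D4:**
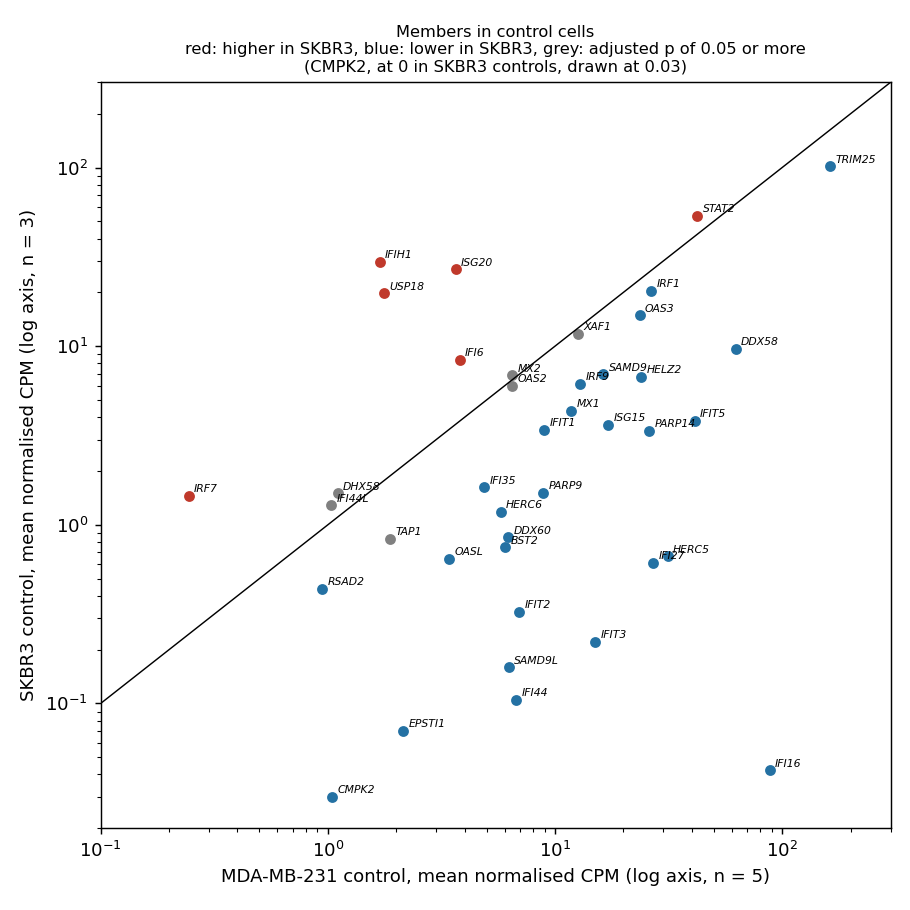
Mean normalised CPM of each gene in SKBR3 controls (vertical, n = 3) and MDA-MB-231 controls (horizontal, n = 5), both on log axes, with the line of equality. Red points (6 genes higher in SKBR3, IFIH1 and USP18 among them) lie above the line and 28 blue ones lie below, down to IFI16 and CMPK2.

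Interferon genes themselves were at or near the limit of detection. Of 21 ligand genes with a row, 14 had no count in any library and none could be tested. Their summed level was 0.040 to 0.333 CPM in MitoQ MDA-MB-231 cells and 0.035 to 0.253 CPM in their controls. It was 0.485 to 0.653 CPM in MitoQ SKBR3 cells and 0.108 to 0.579 CPM in their controls, and IFNB1 was at 0 in all 16 libraries. Over all genes tested, 29.9% rose and 27.6% fell in MDA-MB-231 cells, and 13.8% rose and 14.1% fell in SKBR3 cells. Among 11 genes for receptors, JAK kinases and the remaining STATs, 7 rose and 2 fell in MDA-MB-231 cells. The receptor chain IFNGR2 rose (0.65 ± 0.14), the kinase JAK1 rose (0.57 ± 0.044) and TYK2 rose (0.48 ± 0.053). In SKBR3 cells 3 of the 11 rose and none fell, namely the interferon lambda receptor IFNLR1 (0.60 ± 0.15), IL10RB (0.21 ± 0.065) and TYK2 (0.18 ± 0.050).

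The lists that follow are to be read beside the same shares over all genes tested, and no list was tested as a set. Those shares were 29.9% rising and 27.6% falling in MDA-MB-231 cells, and 13.8% rising and 14.1% falling in SKBR3 cells. Among 16 adaptors, kinases and DNA or endosomal sensors, 6 rose and 3 fell in MDA-MB-231 cells. TLR3, the endosomal sensor of double-stranded RNA, averaged 4.55 CPM with MitoQ and 2.18 CPM in controls (1.09 ± 0.16), and TMEM173, the adaptor STING, averaged 13.4 CPM with MitoQ and 9.26 CPM in controls (0.56 ± 0.081). AIM2, the inflammasome DNA sensor, averaged 5.71 CPM with MitoQ and 10.2 CPM in controls (-0.82 ± 0.14). In SKBR3 cells 7 of 15 rose and 1 fell, led by IRF5 (0.70 ± 0.14), the TLR3 adaptor TICAM1 (0.48 ± 0.096) and the kinase IKBKE (0.35 ± 0.083). Among 13 negative regulators 5 rose and 3 fell in MDA-MB-231 cells, and 2 rose and 1 fell in SKBR3 cells. RNF125, a ligase that marks RIG-I for degradation, averaged 12.9 CPM in MitoQ MDA-MB-231 cells and 5.91 CPM in their controls (1.15 ± 0.096, edgeR adjusted p = 5.97e-09). PIAS1 fell most there, averaging 41.1 CPM with MitoQ and 58.2 CPM in controls (-0.48 ± 0.047). In SKBR3 cells RNF125 did not pass (-0.22 ± 0.17), PTPN6 rose (0.33 ± 0.071) and ATG12 fell (-0.19 ± 0.059). NLRX1, a mitochondrial inhibitor of the pathway, rose in MDA-MB-231 (0.71 ± 0.11) and SKBR3 cells (0.64 ± 0.12).

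A further list of 37 interferon-stimulated genes outside the set was read beside it. Shares over all genes tested were again 29.9% rising and 27.6% falling in MDA-MB-231 cells, and 13.8% and 14.1% in SKBR3 cells. In MDA-MB-231 cells 18 of 34 tested rose and 6 fell (median log2 fold change 0.21), led by APOL6 (1.69 ± 0.051), DDX60L (1.21 ± 0.078) and TNFSF10 (1.201 ± 0.18). In SKBR3 cells 14 of 33 rose and 2 fell (median 0.32), led by GBP1 (1.36 ± 0.18), PARP10 (1.25 ± 0.26) and IFITM1 (0.95 ± 0.33). Of 17 antigen presentation genes beside TAP1, 5 of 15 tested rose and 2 fell in MDA-MB-231 cells, and 3 of 12 rose and 1 fell in SKBR3 cells. ERAP1, a peptide-trimming protease, and HLA-E rose in MDA-MB-231 cells (0.68 ± 0.049 and 0.68 ± 0.11) and in SKBR3 cells (0.55 ± 0.070 and 0.34 ± 0.056). The chaperone CALR fell in MDA-MB-231 cells (-1.05 ± 0.058). TAP1 itself, the peptide transporter, was at 0.925, 2.08, 1.03, 0.832 and 0.959 CPM with MitoQ and 3.71, 1.01, 0.955, 1.12 and 2.61 CPM in MDA-MB-231 controls. It varied between libraries of one group by more than the groups differed, and 14% of its stretches are shared with other genes, chiefly PSMB8-AS1.

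Summed markers of other cell types were low beside the summed level of the set, although some single markers were well expressed. The 12 leukocyte markers summed to 64.2 to 80.7 CPM in MitoQ MDA-MB-231 cells and 69.4 to 78.0 CPM in their controls, where MS4A1, GZMB and FCGR3A were at 0. They summed to 9.69 to 13.7 CPM in MitoQ SKBR3 cells and 6.56 to 7.86 CPM in their controls, where MS4A1 was at 0. In SKBR3 cells the 2 leukocyte markers that could be tested both rose, CD68 (0.60 ± 0.12) and the low ITGAM (1.56 ± 0.40). ITGAM averaged 0.998 CPM with MitoQ and 0.320 CPM in controls. In MDA-MB-231 cells 3 could be tested, of which NCAM1 rose (0.45 ± 0.059) and CD68 fell (-0.25 ± 0.069). The 10 fibroblast and endothelial markers summed to 14.2 to 20.0 CPM in MitoQ and 16.2 to 18.2 CPM in control MDA-MB-231 cells, with 1 rising and 1 falling. They summed to 34.9 to 40.4 CPM in MitoQ and 29.8 to 36.0 CPM in control SKBR3 cells, with 1 rising. CDH5 gave the largest part of that sum, 23.0 CPM with MitoQ and 17.5 CPM in controls. The median gene of the set was at 2.49 CPM in SKBR3 controls. The part of these markers in the results was not tested.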

How the data were processed

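Total RNA of 16 libraries was compared. The authors deposited estimated counts for each gene, all whole numbers. Salmon, edgeR and the build GRCh38 are named per the submitters' processing notes. Versions, roles, the annotation release and how whole numbers arose are not given in the sources used here. SKBR3 column names carry the other line's number but match the sample descriptions. Of 35106 rows, 35003 matched GENCODE release 29 by ID, which gave positions and transcript lengths.

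The genes of the set and all lists were chosen with earlier results of these data known. Low genes were removed by filterByExpr and libraries scaled by TMM before the edgeR 4.0.16 test (robust quasi-likelihood F test, two-sided, Benjamini-Hochberg adjustment over all genes tested, threshold 0.05) in R 4.3.3. Treatment was tested within line, the interaction over 16 libraries, and the lines over 8 controls. Dividing the size of the log2 fold change by the root of F gave the SE, and 95% intervals are 1.96 SE wide on each side. These intervals ignore the small numbers of libraries, are narrower than the F test would give, and are not adjusted for the genes tested. Named were the 7 sensors and factors and, among effectors, the 10 largest called rises and falls per treatment comparison with at least 1 CPM and no overlap, the 5 largest differences each way in the interaction, and the 6 largest each way between controls. TRIM25, ISG15, OAS2, MX1, MX2, BST2, IFIT1 and HERC5 in MDA-MB-231 cells were added after their values were seen. OAS3 and TAP1 in MDA-MB-231 cells, and SAMD9L and TAP1 between controls, are also given outside the naming rule. From each pathway list, up to 3 called genes per treatment comparison were eligible. Shared sequence is the share of a gene's 31-base stretches found in transcripts of other genes. Counting intervals and floors cover counting error only. Alternatives were DESeq2 1.42.0, limma 3.58.1 (voom), other scalings, filters and thresholds, a replicate block and leaving out each library.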

Additional observations from a re-analysis of the deposited data

Results flagged for a closer look

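In 7 of 80 pairs of a gene and a group of 5 MDA-MB-231 libraries, the highest or lowest library was far from the other 4 for the range of its group, which chance gives in about 1 of 20 groups. MitoQ library 2 was that library for 5 genes. It was low for STAT2 (69.9 CPM, the others 74.4 to 75.9), MX1 (13.4 CPM, the others 15.8 to 16.2), HELZ2 (37.2 CPM, the others 46.3 to 47.5) and EPSTI1 (2.33 CPM, the others 3.23 to 3.59). It was high for TAP1 (2.08 CPM, the others 0.832 to 1.03). Control library 1 was low for IFIH1 (1.22 CPM, the others 1.76 to 1.87), and control library 5 was high for IRF7 (0.774 CPM, the others 0.043 to 0.253).

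The MitoQ effect differed between the lines by the interaction test for 15 genes, given as the log2 fold change in MDA-MB-231 minus that in SKBR3. The effect was higher in MDA-MB-231 cells for IFIH1 (1.32), STAT2 (0.62), OASL (1.34), TRIM25 (0.61), RSAD2 (1.52), ISG20 (0.99) and XAF1 (0.67). The fitted differences of IFI16 (3.999) and EPSTI1 (4.62) rest on 3 and 5 counts in SKBR3 controls and give no size. The effect was lower in MDA-MB-231 cells for DDX58 (-1.31), IRF1 (-0.37), IFIT5 (-0.53), OAS3 (-0.32), PARP9 (-0.53) and PARP14 (-0.42).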

How the results depend on the processing

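Under the alternatives run, the MDA-MB-231 counts of the set stayed at 25 to 31 higher and 2 lower, and the control-line counts at 6 or 7 higher and 26 to 28 lower. In SKBR3 cells 10 genes rose, against 6 at a threshold of 0.01 and 5 in a test against a 1.2-fold change, under which 0 fell. DESeq2 gave 8 (without IRF9 and HERC6). A single fit over 16 libraries gave 9 higher, without IRF7 and IRF9 and with IFI35, and 1 lower, EPSTI1 (at near-zero counts) in place of USP18. Leaving out single libraries gave 6 to 11. In the interaction 9 genes were higher, against 6 to 11 under the alternatives. There 6 were lower, against 2 with plain totals, 2 at a threshold of 0.01 and 2 against 1.2-fold, and 3 to 7 leaving out single libraries. Over all genes, the test against 1.2-fold called 4400 (MDA-MB-231), 472 (SKBR3) and 2877 (interaction). SKBR3 calls were also 2436 at 0.01, 2788 in a single fit over 16 libraries and 2565 to 4547 leaving out single libraries. Where signs reversed, neither value passed the test: in SKBR3 cells IFI27 was 0.0065 with plain totals, 0.043 with limma voom, 0.0045 with no filter and 0.014 in the single fit. TRIM25 was -0.017 and XAF1 -0.026 with voom, DDX58 -0.0017 without mitochondrial genes. Leaving out single libraries, the values ran from -0.054 to 0.11 for CMPK2 and -0.010 to 0.21 for IFI44L in MDA-MB-231 cells. In SKBR3 cells they ran from -0.14 to 0.13 for IFI27, -0.074 to 0.085 for DDX58, -0.028 to 0.048 for TRIM25, -0.078 to 0.16 for MX1 and -0.10 to 0.14 for XAF1, and in the interaction from -0.050 to 0.13 for IRF9. The cause was not tested. Deviations of same-numbered libraries from their group means correlated at -0.154 to 0.0465 in MDA-MB-231 and 0.00148 to 0.117 in SKBR3. With 5 or 3 libraries in a group, such values cannot exclude pairing. Without a replicate block 8805 genes were called in MDA-MB-231, 4202 in SKBR3 and 5823 in the interaction. With a replicate block the set had 29 higher and 2 lower in MDA-MB-231 (8363 genes called), 11 and 1 in SKBR3 (4758), 9 and 7 in the interaction (5416) and 6 and 28 between controls (13843), with SKBR3 DDX58 at -0.014 and MX1 at -0.0019. In 1 of 5 MDA-MB-231 numbers and 1 of 3 SKBR3 numbers a library correlated best with its own number.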
